A study of Mus musculus with 8 samples.

Results

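The genes of ketone body uptake and oxidation and of branched-chain amino acid breakdown were followed in hearts of swimming-trained and sedentary mice. They were taken by name, as a list of 29 genes, from the 18137 genes with a level in the table. RNA of the heart was sequenced in 4 swimming and 4 sedentary samples, all of wild-type (WT) genotype, in a study titled for aging hearts. The labels give neither the strain, age and sex of the mice nor the length of the training, and they number biological replicates 1 to 4 in each group without saying that each came from a separate animal, so p-values measure the spread between these samples. Levels are FPKM, the fragments of a transcript scaled to its length and to the size of the library, so that they can be set side by side between genes.

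Ketone bodies are made by the liver in fasting and prolonged exercise and are burned by the heart. Monocarboxylate transporters carry them into the cell, the mitochondrial dehydrogenase BDH1 oxidises beta-hydroxybutyrate to acetoacetate, the transferase OXCT1 activates acetoacetate with coenzyme A, and the thiolase ACAT1 splits the product to acetyl-CoA. Leucine, isoleucine and valine lose their amino group to a branched-chain aminotransferase, and the ketoacids are then committed to oxidation by the branched-chain ketoacid dehydrogenase complex, which a kinase switches off and a phosphatase switches on. Separate branches then take leucine to acetyl-CoA and acetoacetate, and isoleucine and valine by way of propionyl-CoA to the citric acid cycle.

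The libraries had FPKM totals of 210413 to 229554 in swimming and 226776 to 235461 in sedentary hearts. Total reads are not in the table, but the steps in its lowest values put the depth of swimming replicate 2 at 1.64 times the geometric mean of the libraries, and that of the other 7 libraries at 0.871 to 1.00 times. All 10 cardiomyocyte markers checked were present, with summed levels of 6165 to 7051 FPKM in swimming and 6182 to 7464 FPKM in sedentary hearts, as the labelled tissue would give. Among them the sum of Mybpc3 was unsteady, at 1.03 to 49.1 FPKM in swimming and 0.791 to 46.9 FPKM in sedentary libraries. Sedentary replicate 4 held transcripts typical of liver and fat. Its 7 hepatocyte markers summed to 47.3 FPKM and its 6 adipocyte markers to 20.97 FPKM, against at most 0.777 and 0.969 FPKM in the other libraries. Mitochondrially encoded genes held 13.4% to 18.5% of the FPKM total in swimming and 19.1% to 20.8% in sedentary libraries, without overlap.

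On the values as deposited, the ketone genes Slc16a1, Bdh1 and Oxct1 were lower in every swimming library than in every sedentary library. Their swimming means were 0.888, 0.792 and 0.939 times the sedentary mean. None of these differences passed the adjustment over all genes. The branched-chain amino acid genes lay on both sides of no difference, and in none of them did the groups separate on the values as deposited. Among single transcripts, the level listed for Pccb, a subunit gene of propionyl-CoA carboxylase, was divided between a long and an exon-skipping form. This held in all swimming libraries and in 1 of 4 sedentary libraries. Neither form passed the adjustment over all transcripts (limma adjusted p = 0.847 for each). The missing levels of the skipped form can be failed estimates. Forms of Bcat2, Bckdhb and Hsd17b10 also came and went between libraries, without following the groups.

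Of the 29 genes 28 averaged 0.5 FPKM or more and were tested. Between swimming and sedentary hearts 0 of the 28 were called at a limma adjusted p below 0.05, where 0.0171% of all 11674 genes tested were called. At an unadjusted p below 0.05 limma found 3 of the 28 lower and 0 higher, against 2.43% of all genes lower, 4.93% higher and 7.37% in either direction. In the same 3 genes all swimming libraries were below all sedentary libraries, which held for 1.58% of all genes, and 0 of the 28 showed the opposite, against 3.24% of all genes. In either direction the groups were apart in 4.82% of all genes. All 3 are ketone genes. The median log2 fold change was -0.17 over the 5 ketone genes, 0.03 over the 23 tested branched-chain amino acid genes and 0.03 over all genes tested. In bulk tissue, fewer cells of a type and less RNA per cell cannot be told apart.

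**Figure D1:**
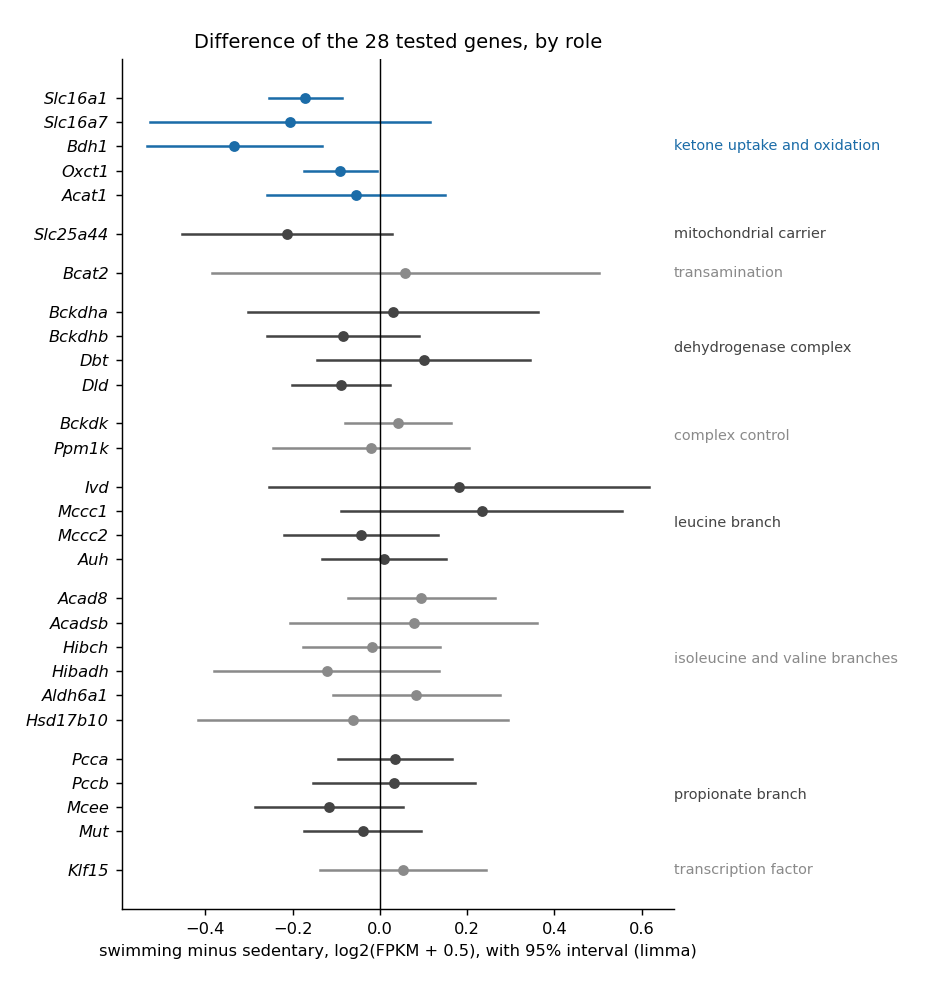
Difference between swimming and sedentary hearts (x axis, swimming minus sedentary on the log2(FPKM + 0.5) scale) for the 28 tested genes, grouped by role. Points are limma estimates and lines their 95% intervals, and the intervals of Slc16a1, Bdh1 and Oxct1 lie wholly below 0 while those of the other 25 genes cross it.

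Slc16a1 (ENSMUSG00000032902, chromosome 3, 104638668 to 104658462, plus strand, build mm10) encodes MCT1, a monocarboxylate transporter for lactate, pyruvate and ketone bodies. It had 64.1, 66.2, 62.9 and 64.6 FPKM in swimming replicates 1 to 4, against 73.1, 73.0, 71.8 and 72.6 FPKM in sedentary replicates 1 to 4. The groups were 5.64 FPKM apart at their nearest libraries, and within the groups the libraries lay close together. The log2 fold change was -0.17 (SE 0.036, 95% interval -0.25 to -0.09), which ranked 36 of 11674 genes by p (limma unadjusted p = 0.00151, adjusted p = 0.479). Its residual spread was smaller than that of all but 0.760% of genes whose mean level was within 0.5 log2 units of its own.

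Bdh1 (ENSMUSG00000046598, chromosome 16, 31422280 to 31458901, plus strand) encodes beta-hydroxybutyrate dehydrogenase. It had 31.4, 31.2, 38.3 and 31.3 FPKM in swimming replicates 1 to 4, against 40.0, 41.5, 46.4 and 38.9 FPKM in sedentary replicates 1 to 4. Swimming replicate 3 stood above the other swimming libraries and just under the lowest sedentary library. The log2 fold change was -0.33 (SE 0.087, 95% interval -0.53 to -0.13), with the lowest ratio of means among the 28 genes (limma unadjusted p = 0.00504, adjusted p = 0.567).

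Oxct1 (ENSMUSG00000022186, chromosome 15, 4026383 to 4155344, plus strand) encodes the coenzyme A transferase that tissues outside the liver need to burn ketone bodies, and had the highest level of the 29 genes. It had 150.5, 149.9, 152.8 and 155.4 FPKM in swimming replicates 1 to 4, against 162.7, 163.3, 162.8 and 159.2 FPKM in sedentary replicates 1 to 4. The groups did not overlap, although swimming replicate 4 and sedentary replicate 4 were only 3.79 FPKM apart. The log2 fold change was -0.09 (SE 0.036, 95% interval -0.17 to -0.01, limma unadjusted p = 0.0365, adjusted p = 0.658).

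Without sedentary replicate 4, the library with liver and fat transcripts, the log2 fold changes of Slc16a1, Bdh1 and Oxct1 were -0.17, -0.37 and -0.10. With quantile normalization the difference of Slc16a1 was the only 1 of the 3 that still separated the groups. With libraries rescaled to one total without mitochondrially encoded genes, Slc16a1 and Oxct1 still separated them and Bdh1 did not, and Dld, of the branched-chain ketoacid dehydrogenase complex, did so as well. The log2 fold changes of all 3 were negative under all 20 alternatives run, some of which leave a fold change as it was. None of the 20 rescaled libraries to their full FPKM totals, 210413 to 229554 in swimming and 226776 to 235461 in sedentary libraries. Swimming replicate 2, the highest swimming library in Slc16a1 (66.2 FPKM), had the lowest total. Whether the 3 genes separate the groups at equal full totals was not tested. The share of mitochondrially encoded RNA was, like these 3 genes, lower in the swimming group, and its part in the result was not tested. The summed level of 6 macrophage markers was 83.1 to 98.8 FPKM in swimming and 59.5 to 78.8 FPKM in sedentary libraries, without overlap, and its part was not tested either. All 6 markers had a positive log2 fold change, but only 3, C1qa, C1qb and Mrc1, separated the groups singly. The lowest sum was that of sedentary replicate 1, where C1qa was at 6.58 FPKM. Of the 10 cardiomyocyte markers 8 had a negative log2 fold change (median -0.10) and 0 had an unadjusted limma p below 0.05.

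The other ketone genes did not separate. Acat1, the mitochondrial thiolase gene that also ends isoleucine breakdown, had 74.7, 70.9, 69.5 and 59.5 FPKM in swimming replicates 1 to 4, against 62.7, 75.7, 72.1 and 74.7 FPKM in sedentary replicates 1 to 4. Each group held 1 low library and the ranges were alike. Its log2 fold change was -0.06 (95% interval -0.26 to 0.15, limma adjusted p = 0.895). Slc16a7, which encodes the monocarboxylate transporter MCT2, had 1.86 to 2.40 FPKM in swimming and 2.14 to 3.41 FPKM in sedentary libraries, with a log2 fold change of -0.21 (95% interval -0.53 to 0.11, limma adjusted p = 0.764). It was -0.08 without sedentary replicate 2, its highest library, and -0.03 with the transcript of highest mean only. Slc16a1 RNA was 26.2 to 34.7 times as abundant as Slc16a7 RNA per length in swimming libraries, against 21.4 to 33.5 times in sedentary libraries.

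**Figure D2:**
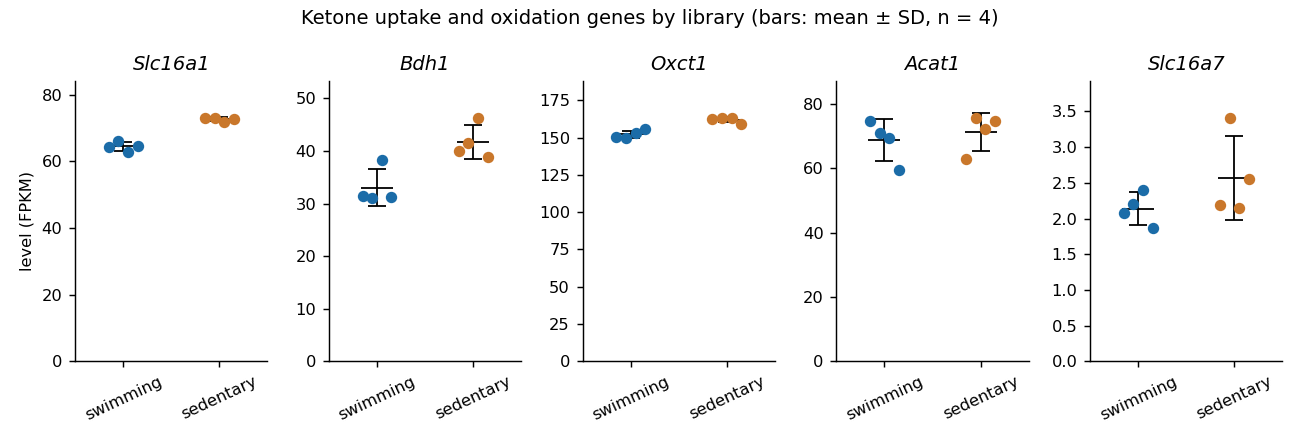
Level (y axis, FPKM from 0) of 5 ketone genes in each library, swimming left of sedentary, with black bars for the mean ± SD (n = 4 per group). Swimming libraries lie below sedentary ones in Slc16a1, Bdh1 and Oxct1, and the groups overlap in Acat1 and Slc16a7.

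The promoters of Slc16a1 and Bdh1 are shown because these 2 genes had the lowest p of the 29. Each run covers 250 bases before to 50 bases after a RefSeq start site of build GRCm38.p6, plus strand, at chr3:104638414-104638713 and chr16:31428503-31428802. The windows were chosen as those nearest to the start of the most abundant transcript. Capitals mark matches to GGGCGG (SP and KLF factors) and CACGTG (E-box factors) on either strand.
Slc16a1: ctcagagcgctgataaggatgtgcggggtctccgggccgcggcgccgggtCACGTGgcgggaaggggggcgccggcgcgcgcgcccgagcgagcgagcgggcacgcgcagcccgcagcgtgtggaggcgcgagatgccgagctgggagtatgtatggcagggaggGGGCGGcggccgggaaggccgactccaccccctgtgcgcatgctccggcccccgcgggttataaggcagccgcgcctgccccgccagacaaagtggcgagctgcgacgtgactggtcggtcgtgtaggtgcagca
Bdh1: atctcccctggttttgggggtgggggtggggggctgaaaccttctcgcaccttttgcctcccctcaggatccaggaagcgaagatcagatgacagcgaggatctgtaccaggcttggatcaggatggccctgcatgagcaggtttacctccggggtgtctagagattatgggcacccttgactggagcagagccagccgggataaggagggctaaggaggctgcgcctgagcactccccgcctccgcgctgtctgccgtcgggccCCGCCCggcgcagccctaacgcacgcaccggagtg
The Slc16a1 window held CACGTG from 200 bases and GGGCGG from 85 bases before the start site, and the Bdh1 window held GGGCGG on the minus strand from 15 bases after it. The Oxct1 window held neither. GGGCGG was found in 35.7% of the 32851 promoters of the table and in 14 of the 30 windows of these genes (24 of the 29 matched by symbol), and CACGTG in 7.15% and in 3 of 30. AAGGTCA, the motif of estrogen-related receptors, was found in 4.72% of all promoters and in 0 of 30 windows. CCAAT (NF-Y) was in 37.4% of all promoters and in 18 of 30 windows, and the core promoter motif TATAAA in 13.6% and in 2 of 30. None of these motifs overlaps another in its letters, and a match is a description of the sequence.

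Levels of the 29 genes ran from Oxct1, with means of 152.2 ± 2.52 FPKM in swimming and 162.0 ± 1.89 FPKM in sedentary hearts (SD, n = 4 each), down to Bcat1. Bcat1, the cytosolic aminotransferase gene, was at 0.0835, 0.158, 0.185 and 0.157 FPKM in swimming replicates 1 to 4, against 0.217, 0.137, 0.0604 and 0.0742 FPKM in sedentary replicates 1 to 4, and was not tested. Next to Oxct1 came Dld, Hibadh, Acat1, Bckdha and Slc16a1, the last 3 with overall means of 68.5 to 69.98 FPKM that lay within their spread over libraries. The lowest tested genes were Acad8, Mccc1, Slc25a44 and Slc16a7, with overall means of 7.07, 4.41, 4.27 and 2.36 FPKM. In all, 24 of the 29 genes had a mean above 15 FPKM.

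**Figure D3:**
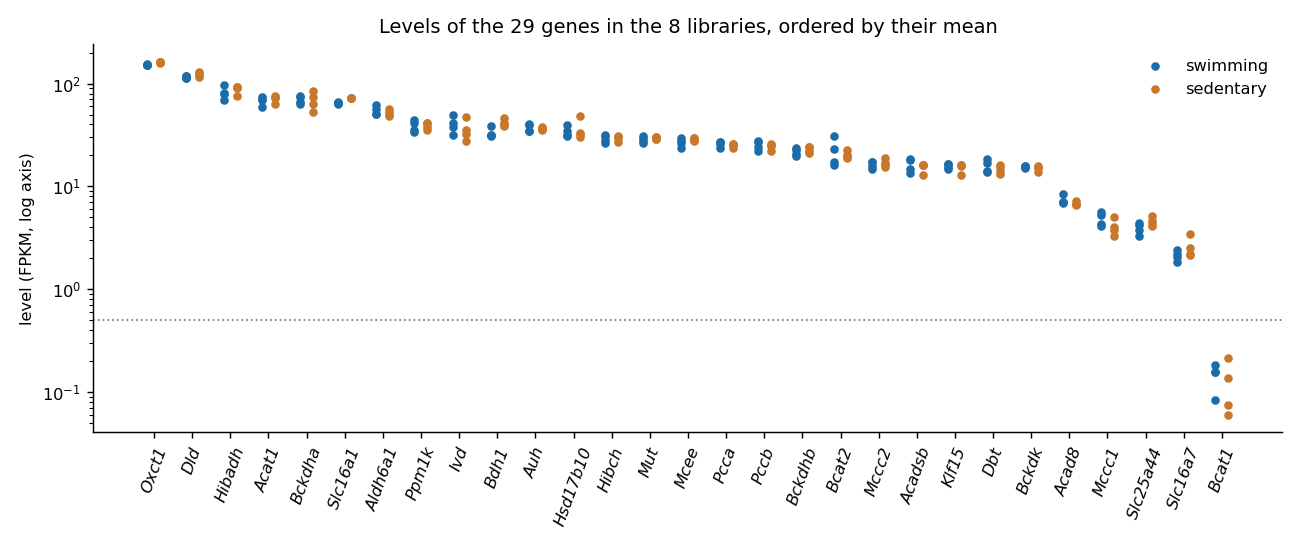
Level (y axis, FPKM, log axis) of the 29 genes in the 8 libraries, ordered by overall mean, with swimming points left of sedentary points. The dotted line is the filter of 0.5 FPKM, and Bcat1 is the only gene under it.

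The first step of branched-chain amino acid breakdown showed no separation. Slc25a44, which encodes the mitochondrial carrier of branched-chain amino acids, had 3.80, 3.26, 4.25 and 4.38 FPKM in swimming replicates 1 to 4, against 4.45, 4.62, 4.16 and 5.21 FPKM in sedentary replicates 1 to 4. Only sedentary replicate 3 reached into the swimming range. The log2 fold change was -0.21 (95% interval -0.45 to 0.03, limma unadjusted p = 0.0753, adjusted p = 0.699). With the transcript of highest mean in place of the sum over transcripts the direction turned, to 0.66. Bcat2, the mitochondrial aminotransferase gene, had 31.0, 16.2, 17.3 and 23.0 FPKM in swimming replicates 1 to 4, against 20.3, 19.7, 22.4 and 18.9 FPKM in sedentary replicates 1 to 4. The swimming libraries spread on both sides of the sedentary ones, and the 95% interval of the log2 fold change was -0.38 to 0.50 (limma adjusted p = 0.956).

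The subunits of the dehydrogenase complex were present at unequal levels. Bckdha, the E1 alpha subunit gene, had 75.4, 62.7, 74.4 and 66.2 FPKM in swimming replicates 1 to 4, against 53.2, 74.5, 85.4 and 63.1 FPKM in sedentary replicates 1 to 4. Bckdhb, the E1 beta subunit gene, had 23.9, 20.6, 19.7 and 22.4 FPKM in swimming replicates 1 to 4, against 21.3, 22.1, 24.4 and 24.0 FPKM in sedentary replicates 1 to 4. Alpha subunit RNA per length was thus 2.95 to 3.78 times the beta subunit RNA in swimming libraries and 2.499 to 3.50 times in sedentary libraries. Dbt, which encodes the E2 core, had 13.9 to 18.3 FPKM in swimming and 13.2 to 16.0 FPKM in sedentary libraries. Dld, the E3 subunit gene that other dehydrogenase complexes share, had 112.8 to 118.8 FPKM in swimming and 116.1 to 130.9 FPKM in sedentary libraries. The 95% intervals of the log2 fold change were -0.30 to 0.36 for Bckdha, -0.26 to 0.09 for Bckdhb, -0.14 to 0.35 for Dbt and -0.20 to 0.02 for Dld (limma adjusted p from 0.713 to 0.970).

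The ratio of Bckdhb to Dbt RNA was 1.31, 1.46, 1.42 and 1.31 in swimming replicates 1 to 4, against 1.61, 1.57, 1.59 and 1.501 in sedentary replicates 1 to 4. Every swimming library had the lower ratio, although neither gene separated the groups by itself. This ratio was chosen after its values were seen, among 9 ratios computed, and was not tested.

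The genes that switch the complex overlapped between groups. Bckdk, which encodes the inactivating kinase, had 15.7, 15.8, 15.3 and 15.1 FPKM in swimming replicates 1 to 4, against 13.9, 15.7, 15.4 and 15.1 FPKM in sedentary replicates 1 to 4. Ppm1k, which encodes the activating phosphatase, had 41.4, 35.6, 33.6 and 44.1 FPKM in swimming replicates 1 to 4, against 35.7, 41.3, 41.2 and 37.9 FPKM in sedentary replicates 1 to 4. The ratio of Bckdk to Ppm1k RNA was 0.405 ± 0.0535 in swimming and 0.385 ± 0.00995 in sedentary hearts (SD, n = 4 each), so that phosphatase RNA exceeded kinase RNA per length in all 8 libraries. For Bckdk the 95% interval of the log2 fold change, -0.08 to 0.16, was narrow, and for Ppm1k it was -0.24 to 0.20.

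**Figure D4:**
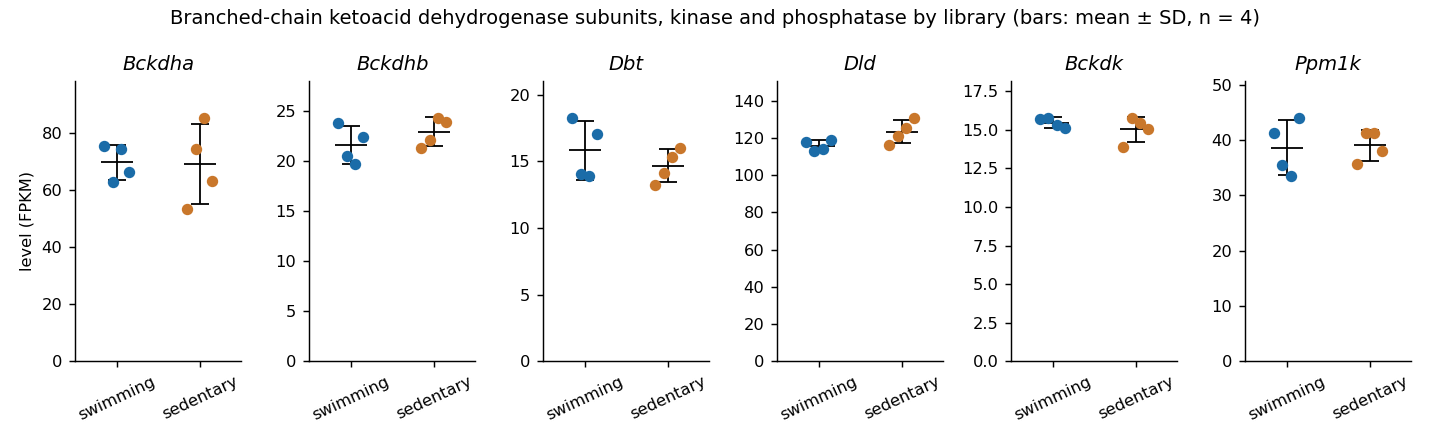
Level (y axis, FPKM from 0) of the 4 subunit genes of the branched-chain ketoacid dehydrogenase complex, its kinase gene Bckdk and its phosphatase gene Ppm1k in each library, swimming left of sedentary, with black bars for the mean ± SD (n = 4 per group). The groups overlap in all 6 genes.

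In the leucine branch Ivd, the isovaleryl-CoA dehydrogenase gene, varied most, with 38.2, 41.2, 31.9 and 49.9 FPKM in swimming replicates 1 to 4, against 27.6, 47.8, 35.6 and 32.2 FPKM in sedentary replicates 1 to 4. Its 95% interval of the log2 fold change was wide, -0.25 to 0.62. Mccc1 and Mccc2 encode the alpha and beta subunits of methylcrotonyl-CoA carboxylase. Mccc1 had 4.29, 4.09, 5.62 and 5.22 FPKM in swimming replicates 1 to 4, against 3.31, 5.002, 3.77 and 3.998 FPKM in sedentary replicates 1 to 4, with a log2 fold change of 0.23 (95% interval -0.09 to 0.56, limma adjusted p = 0.729). That value was 0.0579 with protein-coding transcripts only. Mccc2 had 16.4 ± 1.21 FPKM in swimming and 16.9 ± 1.35 FPKM in sedentary hearts (SD, n = 4 each). Of the summed Mccc1 level, 76.0% to 92.1% in swimming and 79.1% to 94.7% in sedentary libraries was assigned to Mccc1-205, a transcript annotated for nonsense-mediated decay. Auh, the methylglutaconyl-CoA hydratase gene, had 37.1 ± 2.83 FPKM in swimming and 36.8 ± 1.12 FPKM in sedentary hearts.

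The isoleucine and valine branches held 3 genes with positive and 3 with negative log2 fold changes, between -0.12 and 0.10. Acadsb, the dehydrogenase gene of the isoleucine branch, had 13.6 to 18.4 FPKM in swimming and 12.8 to 16.2 FPKM in sedentary libraries. Acad8, its counterpart for valine, had 6.93 to 8.39 FPKM in swimming and 6.60 to 7.16 FPKM in sedentary libraries. These ranges overlapped, as did those of the remaining genes of the branches. Hibch, which encodes the hydrolase that frees 3-hydroxyisobutyrate, had 29.2 ± 2.16 FPKM in swimming and 29.5 ± 1.66 FPKM in sedentary hearts. Hibadh, the dehydrogenase gene of the next step, had 96.6, 68.7, 81.1 and 78.3 FPKM in swimming replicates 1 to 4, against 76.1, 91.5, 92.7 and 91.7 FPKM in sedentary replicates 1 to 4. Swimming replicate 1 lay above all sedentary libraries, and every sedentary library lay within the swimming range. Aldh6a1, the methylmalonate semialdehyde dehydrogenase gene that ends the valine branch, had 50.8 to 62.4 FPKM in swimming and 48.9 to 56.9 FPKM in sedentary libraries. Hsd17b10, an X-linked gene whose product acts in isoleucine breakdown and in mitochondrial RNA processing, had 31.2 to 39.5 FPKM in swimming and 30.5 to 48.6 FPKM in sedentary libraries.

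The groups overlapped in all 4 genes of the propionate branch. Pcca and Pccb, the alpha and beta subunit genes of propionyl-CoA carboxylase, had nearly equal levels: 25.7 ± 1.48 and 25.1 ± 2.36 FPKM in swimming hearts, against 25.1 ± 1.00 and 24.5 ± 1.59 FPKM in sedentary hearts (SD, n = 4 each). The ratio of Pcca to Pccb was 0.977 to 1.151 in swimming and 0.968 to 1.06 in sedentary libraries. Mcee, the methylmalonyl-CoA epimerase gene, had 29.5, 26.2, 23.5 and 27.4 FPKM in swimming replicates 1 to 4, against 28.3, 29.8, 27.5 and 29.8 FPKM in sedentary replicates 1 to 4. Mut, the gene of the cobalamin-dependent methylmalonyl-CoA mutase, had 28.7 ± 2.04 FPKM in swimming and 29.4 ± 0.696 FPKM in sedentary hearts. The 95% intervals of the log2 fold change were -0.10 to 0.16 for Pcca, -0.15 to 0.22 for Pccb, -0.29 to 0.05 for Mcee and -0.17 to 0.10 for Mut.

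Klf15 encodes a transcription factor known to drive Bcat2 and other amino acid breakdown genes in muscle. It had 15.3, 14.8, 16.4 and 16.5 FPKM in swimming replicates 1 to 4, against 12.9, 15.8, 16.2 and 16.0 FPKM in sedentary replicates 1 to 4. Only sedentary replicate 1 lay below the swimming libraries. The log2 fold change was 0.05 (95% interval -0.14 to 0.24, limma adjusted p = 0.890).

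The levels listed for single transcripts of a gene varied more between libraries than their sum in several genes, and estimates of single transcripts can fail. Of the 51 transcripts of these genes that averaged 0.5 FPKM or more, 0 were called at a limma adjusted p below 0.05, where 0.0531% of 22614 transcripts were called. At an unadjusted p below 0.05 limma found 4 of the 51 lower and 1 higher, against 2.09% and 3.41% of all transcripts, or 5.51% in either direction. The groups were apart with swimming lower in 3 of the 51 (1.4% of all transcripts), with swimming higher in 0 (2.6%), and in either direction in 4% of all transcripts. Those at an unadjusted p below 0.05 that were lower were Slc16a1-201, Bdh1-203, Oxct1-201 and Pccb-201, and the higher one was Pccb-204. Bdh1-203 held 82.1% to 99.5% of the Bdh1 level in swimming and 96.1% to 99.7% in sedentary libraries, and Oxct1-201 held 94.1% to 96.0% and 94.7% to 96.1% of the Oxct1 level, so that the differences of both genes lay in their main transcripts.

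Pccb-204 differs from Pccb-201 in its coding sequence by the loss of exon 6 of 15, which is 111 bases long and keeps the reading frame (37 codons). The exon lies at chr9:101012705-101012815 on the minus strand. Hsd17b10-202 adds 30 bases to exon 4 of 6 (chrX:152003623-152003652, plus strand), and Bcat2-201 holds 15 bases at the start of exon 5 of 11 (chr7:45585111-45585125, plus strand) that Bcat2-202 lacks. The segments are shown because they are the coding differences between these transcripts. Bcat2-201 and Bcat2-202, and Pccb-201 and Pccb-204, also differ in their annotated ends. They are read from the GENCODE M21 transcripts (build mm10), with the differing segment in capitals and 12 coding bases on each side in lower case.
Pccb exon 6, present in Pccb-201: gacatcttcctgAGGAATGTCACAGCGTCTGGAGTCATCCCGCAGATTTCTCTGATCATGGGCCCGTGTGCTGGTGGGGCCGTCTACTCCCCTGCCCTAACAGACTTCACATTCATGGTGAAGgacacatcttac
Hsd17b10 exon 4 extension, present in Hsd17b10-202: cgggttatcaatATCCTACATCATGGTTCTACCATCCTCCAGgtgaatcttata
Bcat2 exon 5 start, present in Bcat2-201: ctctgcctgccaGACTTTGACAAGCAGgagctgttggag

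Pccb-204, the form without exon 6, was listed at 15.98, 13.7, 11.3 and 14.5 FPKM in swimming replicates 1 to 4, against 0, 14.6, 0 and 0 FPKM in sedentary replicates 1 to 4. Pccb-201, the form with the exon, had 10.5, 9.71, 9.95 and 10.6 FPKM in swimming replicates 1 to 4, against 21.1, 9.68, 23.8 and 22.6 FPKM in sedentary replicates 1 to 4. All 4 swimming libraries and sedentary replicate 2 held both forms, and sedentary replicates 1, 3 and 4 had no level of the skipped form. The skipped form made up 50.9% to 58.4% of the Pccb level in swimming libraries and 56.5% in sedentary replicate 2. Neither transcript passed (limma adjusted p = 0.847 for each). Without sedentary replicate 2 both passed, Pccb-204 with a limma adjusted p of 0.000186 and Pccb-201 with 0.00663. That library is the only sedentary one with the skipped form, so leaving it out fixed this outcome, and the pass is no support. Over all 18 alternatives run for each these adjusted p ranged up to 0.922. A level of exactly 0 in a table of estimated levels can be a failed estimate, and no value here tells the forms apart by reads.

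Levels of other transcripts went on and off between libraries without following the groups. Bcat2-203 was at 0.452, 13.1, 13.3 and 0.418 FPKM in swimming replicates 1 to 4, against 0.442, 0.429, 10.1 and 14.001 FPKM in sedentary replicates 1 to 4. Bcat2-202 was at 16.8 FPKM in swimming replicate 4 and listed at 0 in the other 3 swimming libraries, against 10.7 and 11.2 FPKM in sedentary replicates 1 and 3 and 0 in the other 2. Bcat2-201 was at 29.9, 2.98, 3.903 and 5.52 FPKM in swimming replicates 1 to 4, against 7.95, 19.1, 0.969 and 4.67 FPKM in sedentary replicates 1 to 4. A different form thus led in different libraries of the same group. Bckdhb-206 made up 24.5% of the Bckdhb level in swimming replicate 3 and 23.6% and 26.8% in sedentary replicates 1 and 2, and under 1% in the other 5 libraries. Hsd17b10-202 made up 23.8% of the Hsd17b10 level in swimming replicate 3 and 22.6% in sedentary replicate 2, and at most 0.216% in the other 6. In Slc25a44 the forms Slc25a44-203 and Slc25a44-204, which share their annotated coding length of 942 bases, had 0.191 to 0.449 and 1.37 to 2.40 FPKM in swimming libraries, against 0.14998 to 3.29 and 0.527 to 2.08 FPKM in sedentary libraries.

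**Figure D5:**
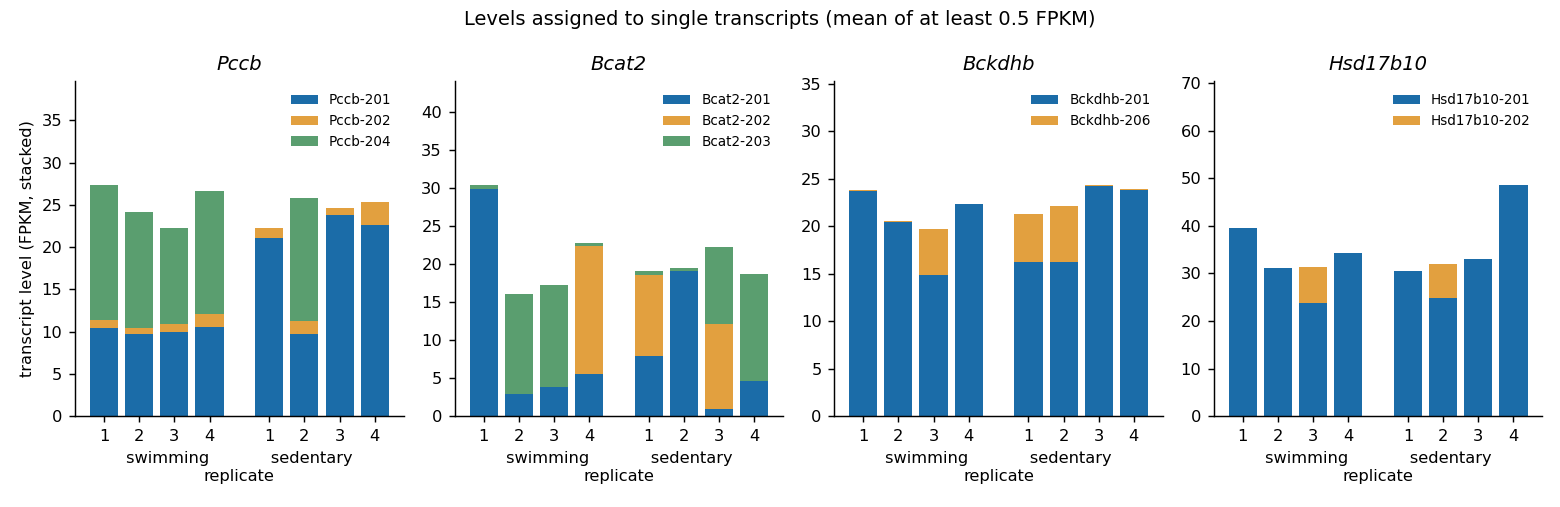
Levels (y axis, FPKM, stacked from 0) assigned to the transcripts of Pccb, Bcat2, Bckdhb and Hsd17b10 averaging 0.5 FPKM or more, in swimming replicates 1 to 4 and then sedentary replicates 1 to 4. Pccb-204 is present in all 4 swimming libraries and in sedentary replicate 2, while the forms of the other 3 genes come and go in both groups.

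Other genes of the same pathways were counted in 4 lists. Of the 44 tested genes in these lists, 0 passed in either direction, where 0.0171% of all genes did. Among ketone synthesis and other ketone genes 4 of 11 were tested. Acat2, the cytosolic thiolase gene, had 1.42 to 1.65 FPKM in swimming and 1.23 to 1.97 FPKM in sedentary libraries, with overlapping ranges.

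Among membrane carriers and their partners 9 of 10 genes were tested, with 7 positive and 2 negative log2 fold changes and a median of 0.15. Slc7a8, which encodes the neutral amino acid transporter LAT2, had 0.969, 0.890, 0.929 and 0.905 FPKM in swimming replicates 1 to 4, against 0.8294, 0.760, 0.607 and 0.678 FPKM in sedentary replicates 1 to 4. The groups were apart, at low levels (log2 fold change 0.23, limma unadjusted p = 0.0287, adjusted p = 0.657). Slc7a5, the gene of the related transporter LAT1, had 1.68 to 2.11 FPKM in swimming and 1.55 to 1.72 FPKM in sedentary libraries (log2 fold change 0.20, limma unadjusted p = 0.0373, adjusted p = 0.660). Slc16a3, which encodes the lactate exporter MCT4, had 0.493 to 0.943 FPKM in swimming and 0.351 to 0.567 FPKM in sedentary libraries.

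Shared steps and cofactor support had 18 of 19 genes tested, with 7 positive and 11 negative log2 fold changes and a median of -0.02. Mmaa, a gene needed to load the mutase with its cobalamin cofactor, had 1.52, 1.25, 1.06 and 1.33 FPKM in swimming replicates 1 to 4, against 0.804, 0.602, 1.09 and 0.658 FPKM in sedentary replicates 1 to 4. Only sedentary replicate 3 reached into the swimming range (log2 fold change 0.48, limma unadjusted p = 0.00871, adjusted p = 0.607). Suclg1, which encodes a subunit of succinyl-CoA ligase, had 98.9 to 109.7 FPKM in swimming and 107.7 to 120.3 FPKM in sedentary libraries (log2 fold change -0.13, limma unadjusted p = 0.0416, adjusted p = 0.665). Echs1, the enoyl-CoA hydratase gene of fat and valine breakdown, had 107.3 to 117.9 FPKM in swimming and 115.4 to 124.3 FPKM in sedentary libraries.

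Nitrogen handling and regulator genes were all tested (13 of 13), with 8 positive and 5 negative log2 fold changes and a median of 0.01. Glul, the glutamine synthetase gene, had 158.7, 141.5, 156.0 and 161.6 FPKM in swimming replicates 1 to 4, against 140.8, 121.9, 124.3 and 135.4 FPKM in sedentary replicates 1 to 4. The groups were separated by 0.666 FPKM between swimming replicate 2 and sedentary replicate 1 (log2 fold change 0.24, limma unadjusted p = 0.00669, adjusted p = 0.586). Pdk4, the pyruvate dehydrogenase kinase gene that fasting raises together with fat oxidation, also lay higher in every swimming library, at 116.4 to 170.4 FPKM against 55.5 to 113.1 FPKM in sedentary libraries (log2 fold change 0.91, limma unadjusted p = 0.00310, adjusted p = 0.546). Got2, the mitochondrial aspartate aminotransferase gene, had 182.2 to 192.4 FPKM in swimming and 184.3 to 204.1 FPKM in sedentary libraries.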

How the data were processed

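Levels were measured by RNA sequencing of ribosomal-RNA-depleted heart RNA primed with random hexamers, per the labels' protocols. The authors deposited 1 table of FPKM values per transcript in build mm10. The submitters' processing notes name HISAT2, Salmon 0.8.2, Subread with featureCounts 1.4.6-p5, and STAR 2.5.1a. Which of these made the FPKM values, the annotation, the strand setting and the filters are not given in the sources used here, so reads of overlapping or antisense genes may be shared.

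Of the 51169 transcripts 45742 had Ensembl identifiers, of which 45676 were named with GENCODE M21, and 66 were not. The remaining 5427 were assembled by the authors and were not paired with genes. They held 11.3% to 12.5% of the FPKM total of a library, so gene sums can miss part of a gene. Sums over transcripts can also be unsteady: Hadha, of the shared steps, was at 0 to 129.1 FPKM in swimming and 0 to 141.5 FPKM in sedentary libraries. The cause was not tested, and such genes were kept among those tested. FPKM values were summed per gene over the named transcripts and 0 columns of values were left unused. Reads could not be recovered as whole numbers, so no count test was run. Genes and transcripts with a mean of at least 0.5 FPKM were tested as log2(FPKM + 0.5) with limma 3.58.1 (lmFit and eBayes with a trend, R 4.3.3, two-sided), on 4 swimming against 4 sedentary libraries without covariates, and p-values were adjusted by Benjamini-Hochberg over all genes or all transcripts. Fold changes are on that scale, which understates the change of low genes. The fit was tested on data simulated with normal noise. The changes simulated there were larger than any found in the member genes, so the power to find small changes was not measured. Tables and figures were made with Python 3.11.15, pandas 2.3.3 and matplotlib 3.10.9. FPKM without counts gives no counting interval.

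The members and lists were chosen with earlier results of these data known. All 29 members are named, and of the other pathway genes up to 3 per list with the smallest p. Some of the pathway genes that this rule names are not reported here. The transcripts and the promoters shown were chosen after their values were seen. Alternatives were other pseudocounts, filters, scalings, moderation, a replicate block, gene sums from other transcripts, and leaving out each library.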

Additional observations from a re-analysis of the deposited data

Results flagged for a closer look

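In 8 of 82 groups of 4 libraries examined at gene level, and in 9 of 28 at transcript level, 1 library stood far from the other 3 relative to the range of the group. Chance gives such a gap in about 1 of 20 groups that were not chosen by their values. The transcripts examined were chosen after their values were seen, so the 9 of 28 cannot be set against that rate. The gaps were judged on FPKM values and no explanation was tested.

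Among the ketone genes, Bdh1 was at 38.3 FPKM in swimming replicate 3, against 31.2 to 31.4 FPKM in the other swimming libraries. Oxct1 was at 159.2 FPKM in sedentary replicate 4, the library with liver and fat transcripts, against 162.7 to 163.3 FPKM in the other sedentary libraries. Among the branched-chain amino acid genes, Acad8 was at 8.39 FPKM in swimming replicate 3, against 6.93 to 7.01 FPKM in the others of its group. Acadsb was at 12.8 FPKM in sedentary replicate 2, against 16.0 to 16.2 FPKM in the others. Hsd17b10 was at 48.6 FPKM in sedentary replicate 4, against 30.5 to 33.1 FPKM in the others. Sedentary replicate 1 was low in 3 genes: Hibadh at 76.1 FPKM (91.5 to 92.7 FPKM in the other sedentary libraries), Klf15 at 12.9 FPKM (15.8 to 16.2 FPKM) and Got2 at 184.3 FPKM (200.96 to 204.1 FPKM).

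Among transcripts, Bcat2-201 was at 29.9 FPKM in swimming replicate 1, against 2.98 to 5.52 FPKM in the other swimming libraries, and Bcat2-202 at 16.8 FPKM in swimming replicate 4, against 0 in the others. Bckdhb-206 was at 4.83 FPKM in swimming replicate 3, against at most 0.151 FPKM in the others. Bdh1-202 was at 5.52 FPKM in swimming replicate 2, against at most 0.250 FPKM in the others, and at 1.74 FPKM in sedentary replicate 3, against at most 0.173 FPKM in the other sedentary libraries. Hsd17b10-202 was at 7.46 FPKM in swimming replicate 3, against at most 0.0741 FPKM, and at 7.26 FPKM in sedentary replicate 2, against 0. Oxct1-201 was at 148.8 FPKM in swimming replicate 4, against 143.0 to 143.9 FPKM. Pccb-204 was at 14.6 FPKM in sedentary replicate 2, against 0 in the other sedentary libraries.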

How the results depend on the processing

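None of the 28 tested genes was called under any of 20 alternatives, and 14 of the 28 kept their sign throughout. Changed filters, the replicate block and eBayes without a trend leave a fold change as it was, so its sign could not turn there. For a gene with 1 listed transcript, such as Slc16a1, the choice of transcripts repeats the main fold change. Slc16a1 ranged from -0.21 to -0.15 on the log2 scale (limma adjusted p from 0.390 to 0.826), Bdh1 from -0.41 to -0.28 (0.393 to 0.826) and Oxct1 from -0.13 to -0.05 (0.567 to 0.871). The count of genes with every swimming library lower, 3, was 1 under quantile normalization and 4 under median-of-ratios scaling, where Dld was added, alternatives to this count chosen after seeing the data. Over all genes tested the same count was 185 of 11674. It was 246 of 11674 under quantile normalization and 349 of 11655 under median-of-ratios scaling, so the background moved as well. Unadjusted limma p below 0.05 was found for 576 genes higher and 284 lower, against 353 and 486 under median-of-ratios scaling and 423 and 391 under quantile normalization.

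Over all genes 2 were called. The count was 1 with a pseudocount of 0.1 or quantile normalization, 6 with the transcript of highest mean only, and 0 to 5 when 1 library was left out (0 when it was swimming replicate 2, 5 when it was swimming replicate 4, 4 for sedentary replicate 2 or 3, 1 for swimming replicate 1 or sedentary replicate 4). Of transcripts 12 were called, 7 with a mean of at least 1 FPKM, and 7 to 25 when 1 library was left out (7 when it was sedentary replicate 1, 20 for sedentary replicate 2, 25 for swimming replicate 3). Of the 51 transcripts of these genes 0 were called, and 0 to 2 when 1 library was left out, the 2 being Pccb-201 and Pccb-204 without sedentary replicate 2. That library is the only sedentary one with a level of Pccb-204, so this outcome was fixed by the library left out. With the replicate block 0 genes and 0 transcripts were called. Same-numbered libraries correlated in their deviations by -0.054 to 0.023, and 1 of 4 correlated best with its own number. These values show no pairing by number, but with 4 libraries per group they cannot exclude it.

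Some log2 fold changes turned in sign, most of them near 0, with Slc25a44 (-0.21) as an exception. With the transcript of highest mean only they were 0.66 for Slc25a44, 0.0197 for Bckdhb, -0.0031 for Auh, 0.0038 for Hibch, -0.81 for Pccb and 0.19 for Acat2, where this sum holds fewer transcripts. Under median-of-ratios scaling they were -0.00903 for Bckdha, -0.029 for Auh, -0.0046 for Pcca and -0.00703 for Pccb, and with arrayWeights -0.026 for Bckdha and -0.012 for Auh. When 1 library was left out they ranged from -0.12 to 0.011 for Acat1, -0.12 to 0.18 for Bcat2, -0.087 to 0.14 for Bckdha, -0.085 to 0.044 for Ppm1k, -0.081 to 0.0063 for Mccc2, -0.026 to 0.044 for Auh, -0.0018 to 0.15 for Acadsb, -0.057 to 0.024 for Hibch, -0.13 to 0.088 for Hsd17b10, -0.013 to 0.088 for Pccb, -0.021 to 0.084 for Klf15 and -0.16 to 0.015 for Acat2. Without a turn, Mccc1 was 0.0579 with protein-coding transcripts only and 0.155 to 0.332 when 1 library was left out, and Slc16a7 was -0.03 with the transcript of highest mean only and -0.27 to -0.08 when 1 library was left out. The cause of the other turns was not tested.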
